A study of Mus musculus with 21 samples.

Results

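The baseline islet transcriptome was described from 7 libraries of regular diet (RD) islets, chosen by their sample titles among the 21 libraries of the series, and no diet comparison was made. All CBA mice were males of an inbred strain. They received standard chow, which was allocated when the mice were 10 weeks old, and islets for RNA-seq were isolated at 20 weeks of age. Each library came from 150 hand-picked islets of a pool of 5 mice after collagenase digestion, so every value is an average over pooled animals and over all cells of the islets. RD carried no drug or transgene. The other 14 libraries came from mice on a high-fat diet (HFD) with or without the compound O304, and they enter only where the same genes were examined in libraries other than RD.

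Pancreatic islets are small endocrine organs embedded in the enzyme-secreting exocrine pancreas. Beta cells make insulin and amylin, alpha cells glucagon, delta cells somatostatin and PP cells pancreatic polypeptide. These peptides are made as precursors, folded in the endoplasmic reticulum (ER) with the help of chaperones, cut by prohormone convertases and stored in dense granules. Acinar cells, the bulk of the surrounding tissue, make digestive enzymes in great amounts, and some of their RNA can accompany islets that are picked by hand.

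The libraries held 31746115 to 41559322 read pairs on genes, with a median of 35836600. Between 25217 and 26440 genes had at least 1 read in a library, and 13006 genes reached 1 CPM in every library, a unit that scales the counts on all genes of each library to the same total. Libraries 6 and 7 stood apart by high counts of acinar genes. Counting error was small at this depth: the exact 95% Clopper-Pearson interval of a list's share spanned at most ±0.0162 percentage points, which covers counting error only. The 5 sex-linked genes examined went with the male label, with Uty at 40.6 CPM ± 1.94 (SD, n = 7) and Xist at 0.106 ± 0.0621.

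Promoter sequences of 7 genes are shown here, Ins1 because insulin was the most abundant product and 6 chaperone genes because genes of protein folding differed among the pools. Each is the 250 bases before the annotated start of the gene in RefSeq (GRCm38.p6), given 5′ to 3′ on the gene's strand. Capitals mark the matches to a motif, searched on both strands. In Ins1 the motif was GCCATCTG, an E-box of the insulin genes, which starts 86 bases before the gene. In Hspa5, Hsp90b1, Calr and Creld2 it was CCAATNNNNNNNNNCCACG, the ER stress response element, in which N is any base. In Hspa1a and Hspa1b it was GAANNTTC, an inverted pair of the units of a heat shock element.
Ins1 promoter, chr19:52264047-52264296, plus strand: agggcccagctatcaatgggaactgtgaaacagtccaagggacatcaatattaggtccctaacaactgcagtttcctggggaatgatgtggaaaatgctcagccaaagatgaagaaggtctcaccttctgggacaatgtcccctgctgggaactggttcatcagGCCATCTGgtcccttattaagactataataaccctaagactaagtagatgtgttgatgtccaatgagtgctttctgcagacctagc
Hspa5 promoter, chr2:34771840-34772089, plus strand: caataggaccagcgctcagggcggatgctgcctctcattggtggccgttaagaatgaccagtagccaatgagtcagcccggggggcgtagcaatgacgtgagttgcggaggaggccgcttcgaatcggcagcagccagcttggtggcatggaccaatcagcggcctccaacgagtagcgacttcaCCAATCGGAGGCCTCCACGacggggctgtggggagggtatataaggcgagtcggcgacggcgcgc
Hsp90b1 promoter, chr10:86705445-86705694, minus strand: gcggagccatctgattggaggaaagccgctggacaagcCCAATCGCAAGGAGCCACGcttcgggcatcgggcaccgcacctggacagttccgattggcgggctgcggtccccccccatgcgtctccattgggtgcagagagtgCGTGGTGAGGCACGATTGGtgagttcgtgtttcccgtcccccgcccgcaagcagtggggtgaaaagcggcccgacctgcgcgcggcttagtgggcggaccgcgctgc
Calr promoter, chr8:84846932-84847181, minus strand: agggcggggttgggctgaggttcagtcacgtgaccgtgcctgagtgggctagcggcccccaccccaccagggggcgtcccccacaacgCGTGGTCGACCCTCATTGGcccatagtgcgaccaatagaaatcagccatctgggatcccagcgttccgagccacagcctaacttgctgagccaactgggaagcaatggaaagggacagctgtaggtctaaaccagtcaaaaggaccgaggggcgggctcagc
Creld2 promoter, chr15:88819396-88819645, plus strand: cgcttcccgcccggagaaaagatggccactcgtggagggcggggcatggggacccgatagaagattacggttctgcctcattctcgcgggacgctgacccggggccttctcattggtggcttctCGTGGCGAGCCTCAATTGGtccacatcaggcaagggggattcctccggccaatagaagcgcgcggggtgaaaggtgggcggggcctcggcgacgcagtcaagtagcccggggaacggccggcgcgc
Hspa1a promoter, chr17:34972157-34972406, minus strand: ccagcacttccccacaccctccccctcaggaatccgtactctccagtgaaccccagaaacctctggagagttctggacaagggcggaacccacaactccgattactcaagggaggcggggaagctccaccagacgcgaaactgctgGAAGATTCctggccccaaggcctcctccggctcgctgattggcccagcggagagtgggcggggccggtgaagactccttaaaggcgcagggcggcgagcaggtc
Hspa1b promoter, chr17:34959239-34959488, minus strand: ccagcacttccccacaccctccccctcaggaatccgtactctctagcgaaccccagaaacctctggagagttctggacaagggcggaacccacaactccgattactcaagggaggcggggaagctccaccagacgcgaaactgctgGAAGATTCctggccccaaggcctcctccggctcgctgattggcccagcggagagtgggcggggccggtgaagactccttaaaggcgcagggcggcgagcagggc
The ER stress response element was found in 35 of 27025 genes with a promoter sequence (0.13%) and in 7 of the 16 ER chaperone genes that matched, which were Calr, Canx, Creld2, Dnajc3, Hsp90b1, Hspa5 and Pdia6. The E-box was held by 344 genes (1.27%), among them Calr and Hsp90b1, and the heat shock pair by 2088 genes (7.73%). Of the 15 matched heat shock and hypoxia genes, Hspa1a, Hspa1b and Hspb1 held the pair. A match describes these letters only.

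The insulin genes dominated the RD islet transcriptome, followed by amylin and glucagon, and this order was the same in each pool. The 8 islet hormone genes took 33.4% ± 1.0 (SD, n = 7) of all counts on genes, between 31.9% and 34.5%. Ins2, an insulin gene, held 20.5%, 19.5%, 20.5%, 20.4%, 20.2%, 19.7% and 18.8% of counts in RD libraries 1 to 7. The other insulin gene, Ins1, held 7.02%, 6.74%, 7.23%, 7.70%, 7.40%, 6.93% and 6.95%. Library 7 was the lowest for Ins2 and library 2 for Ins1, and the ranges of the genes did not overlap. Both insulin genes together took 27.1% ± 0.892 of counts. By the annotation of GRCm38, the Ins2 gene (ENSMUSG00000000215) lies at chr7:142678656-142743381 on the minus strand and Ins1 (ENSMUSG00000035804) at chr19:52264297-52265476 on the plus strand, and the counts cover all exons of each. Ins2 exceeded Ins1 in each library, by 2.66- to 2.92-fold in counts and by 2.15- to 2.36-fold per length of all exons. The longest transcript of Ins2, with 918 bases, is shorter than that of Ins1, with 1062 bases. The fold per length thus depends on the length used. Only 7 of 869 windows of 50 bases in the Ins2 transcript, 0.806%, also occurred in Ins1, so few read pairs could not be told apart between the genes.

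Amylin (Iapp), which beta cells secrete with insulin, held 2.86%, 3.39%, 3.35%, 3.55%, 3.38%, 3.09% and 2.98% of counts. Glucagon (Gcg), the alpha cell hormone, held 2.39%, 2.13%, 2.18%, 2.07%, 2.79%, 2.51% and 2.38%. Iapp was lowest in library 1, whereas Gcg was lowest in library 4 and highest in library 5. These genes held ranks 1 to 4 in each of the 7 libraries, and the 4 most abundant genes took 31.1% to 33.8% of counts. Per length, the summed insulin level was 12- to 16.5-fold that of Gcg. In these bulk samples, fewer cells of a type and less RNA per cell cannot be told apart.

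**Figure D1:**
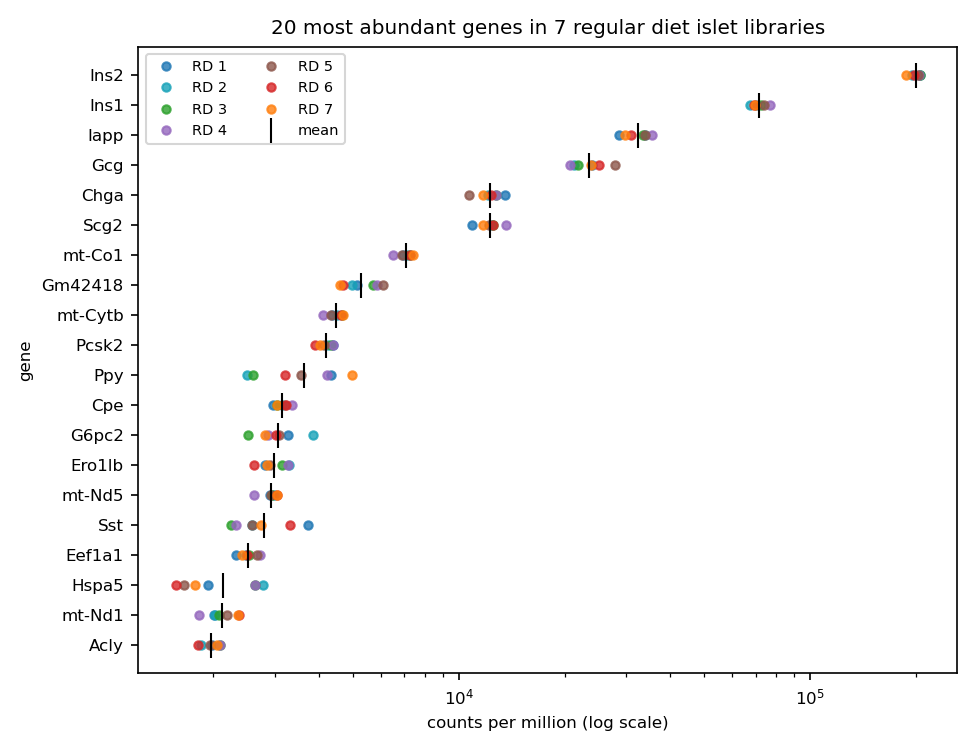
CPM (log axis) of the 20 genes with the highest mean in RD islets, with 1 point for each of the 7 libraries and a vertical mark at the mean. Ins2, Ins1, Iapp and Gcg keep their order in every library, while Ppy, Sst and Hspa5 spread more widely than their neighbours.

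The remaining islet hormones spread more among the pools than the insulin genes. Pancreatic polypeptide (Ppy), the PP cell hormone, had 4327, 2494, 2602, 4203, 3543, 3198 and 4965 CPM. Somatostatin (Sst), the delta cell hormone, had 3730, 2571, 2239, 2318, 2577, 3303 and 2733 CPM, and peptide YY (Pyy) ranged from 525 to 904 CPM. Library 1 was the highest for Sst and Pyy, and libraries 2 and 3 were the lowest for Ppy. The coefficient of variation (CV, the standard deviation divided by the mean, after the variance expected from counting was subtracted) was 0.245 for Ppy, 0.18 for Sst and 0.167 for Pyy, against 0.059 for Ins2, 0.0708 for Ins1 and 0.0884 for Gcg. Ghrelin (Ghrl) was near the lower end at 1.55 CPM ± 0.666.

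On the length-scaled level, in which counts per kilobase of exon were scaled to the same total in each library, the order of the 20 most abundant genes changed below rank 4. Ins2 stood at 325208 ± 8235 (SD, n = 7), Ins1 at 143713 ± 5082, Iapp at 70844 ± 5288 and Gcg at 33622 ± 3493. Ppy rose from rank 11 by CPM to rank 5 per length, at 15475 ± 3969, and Sst from rank 16 to rank 10, at 8252 ± 1614. Pyy (2371 ± 438) and transthyretin (Ttr, a transport protein that alpha cells express, 2232 ± 344) entered the 20 only per length. With the longest transcript in place of all exons 18 of the 20 genes were retained, and with unstranded counts 19.

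A small set of genes made up much of each library. The 10 most abundant genes took 35.6% to 38.5% of counts and the 100 most abundant 45.4% to 48.5%, while 133 to 213 genes were enough for 50% of counts and 4713 to 5043 for 90%. The ranks agreed closely among the pools: 8 genes were among the 10 highest in all 7 libraries, 17 among the 20 highest, 79 among the 100 highest and 830 among the 1000 highest. Protein-coding genes took 98.3% to 98.5% of counts. Among the 20 highest by CPM were also Hspa5, the elongation factor Eef1a1 (2517 CPM ± 140), the citrate lyase Acly (1976) and Gm42418, annotated as a long noncoding RNA on chromosome 17, with 5276 CPM ± 595. The origin of the reads counted on Gm42418 was not tested.

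Granule proteins followed the hormones. Chromogranin A (Chga), a granule core protein, had 13539, 12141, 12728, 12748, 10668, 12308 and 11743 CPM. Secretogranin 2 (Scg2), of the same family, had 10877, 12418, 12481, 13614, 12154, 12494 and 11744 CPM. Per length, Scg2 stood at 10418 ± 661 and Chga at 9520 ± 700, and the libraries of both overlapped. The list of 23 other islet peptides took 3.17% ± 0.141 of counts. The 11 genes of prohormone processing took 1.43% ± 0.0541, led by the convertase Pcsk2 (4192 CPM ± 190), carboxypeptidase E (Cpe, 3132 ± 138) and the oxidoreductase Ero1lb (2977 ± 251), with Pcsk1 at 1010 ± 68.8. The 25 genes of granules and exocytosis took 1.21% ± 0.0403, with G6pc2, an islet glucose-6-phosphatase, at 3051 CPM ± 421 and the zinc transporter Slc30a8 at 887 ± 89.2. The glucose transporter Slc2a2 had 957 CPM ± 95.1.

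Transcription factors were present at far lower levels. The 16 beta cell factors together took 0.195% ± 0.0135 of counts, all 16 above 5 CPM, and their median CV of 0.0802 was near the median of 0.0808 over all genes. Nkx6-1 had 335 CPM ± 57.0, Mafa 292 ± 25.4 and Pdx1 165, between 151 and 179 CPM. Disallowed genes, which are kept low in mature beta cells, took 0.00768% ± 0.000231 in total over 17 members, with Oat at 16.5, Hk1 at 9.22 and Ldha at 8.63 CPM. Ucn3, a marker of mature beta cells, had 549 CPM ± 55.9.

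The mitochondrially encoded protein genes had the lowest median CV of the lists, 0.042, taken over the 7 members above 5 CPM. The 2 mitochondrial rRNA genes, a list of their own, had a median CV of 0.151. The 13 protein genes took 1.97% ± 0.101 of counts. The cytochrome c oxidase subunit mt-Co1 had 6942, 7126, 7270, 6514, 6883, 7272 and 7401 CPM, with a CV of 0.0329, and library 4 was the lowest. It was also the lowest for mt-Cytb, mt-Nd5, mt-Nd1, mt-Nd2 and mt-Nd4, which encode cytochrome b and subunits of complex I. These 6 genes had mean length-scaled levels of 2197 to 9774, whereas mt-Nd6 stood at 27.8, mt-Atp6 at 5.03, mt-Co3 at 3.53, mt-Co2 at 2.81, mt-Nd4l at 1.81, mt-Nd3 at 1.55 and mt-Atp8 at 0.376. The levels of the list thus fell into separate ranges.

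Those low values can be read only as unique counts. Windows of 50 bases, the read length, that also occur in the transcript of another gene made up 99.5% of mt-Atp6, 99.9% of mt-Co3, 98.0% of mt-Nd3, 98.8% of mt-Nd4l and all 635 windows of mt-Co2. The matches were in annotated pseudogenes such as Gm28437, and pairs that map to several places were not counted. The shares were 51.1% for mt-Co1, 62.2% for mt-Nd4, 8.19% for mt-Nd2, 7.61% for mt-Nd5 and 0 for mt-Cytb, mt-Nd1, mt-Nd6 and mt-Atp8. The pseudogene Gm28437, which held 734 of the 735 windows of mt-Co3, had a length-scaled level of 377 ± 107.2 (SD, n = 7). For mt-Nd6 and mt-Atp8 no such match was found. The search covered annotated transcripts only, so matches elsewhere in the genome were not tested for any of these genes. The 46 nuclear genes of the respiratory chain took 0.414% ± 0.0239, with the ATP synthase subunit Atp5b at 590 CPM.

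Markers of the other cells an islet preparation could hold took small shares of the counts in most libraries. The 16 endothelial markers took 0.0753% ± 0.00524 of counts, led by the VEGF receptor Kdr (154 CPM ± 21.2) and Plvap (153 ± 15.1). Stellate, fibroblast and pericyte markers took 0.0601% ± 0.00486, led by Rgs5 at 245 CPM ± 30.04. Duct markers took 0.0584% ± 0.00293, led by Krt7 at 172 CPM ± 16.1, and macrophage and myeloid markers 0.0224% ± 0.00116, led by Cd74 at 70.8 CPM ± 8.0. Each of these 4 lists varied by at most 1.23-fold between libraries, although 1 duct list member, Tff2, had a CV of 1.38. Schwann and neural crest markers took 0.0028% ± 8.87e-05, and lymphocyte, adipocyte and red blood cell markers each stayed at or below 0.00117% in every library and varied 2.14-, 1.64- and 2.06-fold. The fat cell marker Fabp4 had 3.75 CPM and the immunoglobulin chain Ighm 1.67.

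The acinar list stood apart. Its 36 genes took 0.0275%, 0.0588%, 0.0755%, 0.197%, 0.0699%, 1.22% and 0.906% of counts in libraries 1 to 7, a 44.4-fold range. Libraries 6 and 7 were the highest, library 4 next and library 1 the lowest. The most abundant member, the chymotrypsinogen gene Ctrb1, had 18.4, 63.7, 89.0, 254, 107.7, 2049 and 1545 CPM. Pancreatic lipase (Pnlip) had 16.1, 49.5, 72.4, 227, 65.8, 1563 and 1076 CPM, and carboxypeptidase A1 (Cpa1) 9.31, 32.6, 54.2, 157, 48.7, 1016 and 739 CPM. The proportions of the digestive enzymes changed far less than their sum. Counts of Cpa1 were 0.452 to 0.618 of those of Ctrb1, those of Prss2 0.36 to 0.487 and those of Pnlip 0.611 to 0.892. The proportion to Ctrb1 was less steady for Cel, at 0.347 to 0.637. For Cela1 it ran from 0.372 in library 7 to 0.876 in library 1. The acinar transcription factor Ptf1a was at 0.0693 CPM on average.

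**Figure D2:**
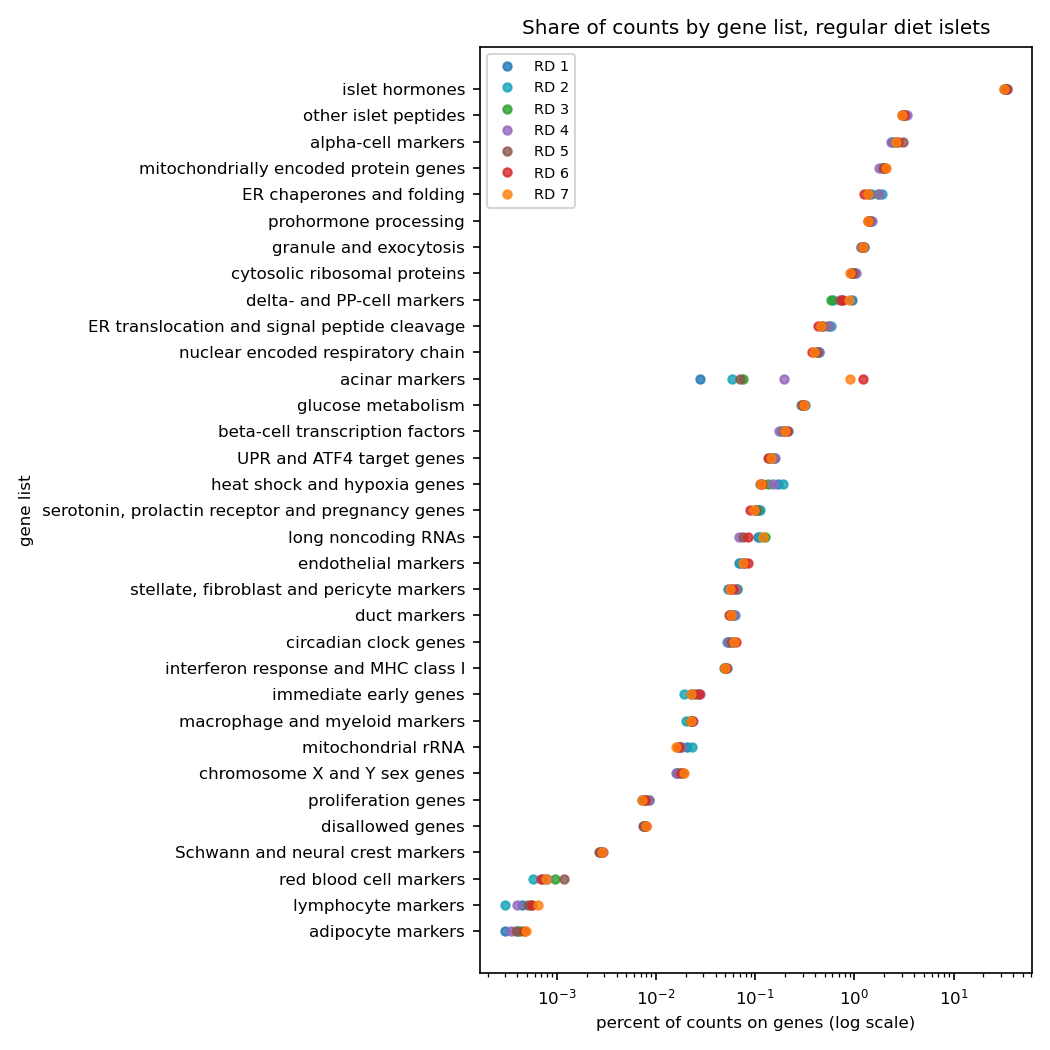
Share of counts on genes (percent, log axis) for the 33 gene lists, with 1 point for each of the 7 RD libraries. The acinar list runs from 0.0275% to 1.22% and is the widest, while the endothelial, duct, stellate and macrophage lists vary by at most 1.23-fold.

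Most genes varied little among the 7 pools. Over the 10615 genes with a mean of at least 5 CPM the median CV was 0.0808, the central range from the 5th to the 95th percentile was 0.0269 to 0.197, and 228 genes, 2.15%, had a CV of at least 0.25. Of these, 32 reached 1 and 37 reached 0.5. Protein-coding genes made up 80.7% of the variable genes and 96.8% of all 10615. The value is a description and carries no test.

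Acinar genes led the ranking, with 24 of the 30 highest places. All 26 acinar members above 5 CPM were variable, against 2.15% of all genes at that level, with a median CV of 1.37. The highest was Amy2b, an amylase locus annotated as a pseudogene, at 1.51, with 0.711 CPM in library 1 and 124 in library 6. In Amy2b 40.2% of the windows occurred in other amylase genes, so its counts are uncertain. The trypsinogen genes Try4 and Try5 shared 65.6% and 53.9% of their windows with other genes and carry the same limit. Outside the list, the secretory products Klk1 and Tff2, Cuzd1 and the disulfide isomerase Pdia2 were likewise highest in libraries 6 and 7 and lowest in library 1. The lowest CV among the 26, 0.284, belonged to the transcription factor Bhlha15, which had its lowest value in library 6, with 140, 172, 131, 135, 90.6, 84.2 and 95.3 CPM. Without libraries 6 and 7, 24 acinar genes were still variable among the remaining 5 pools.

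**Figure D3:**
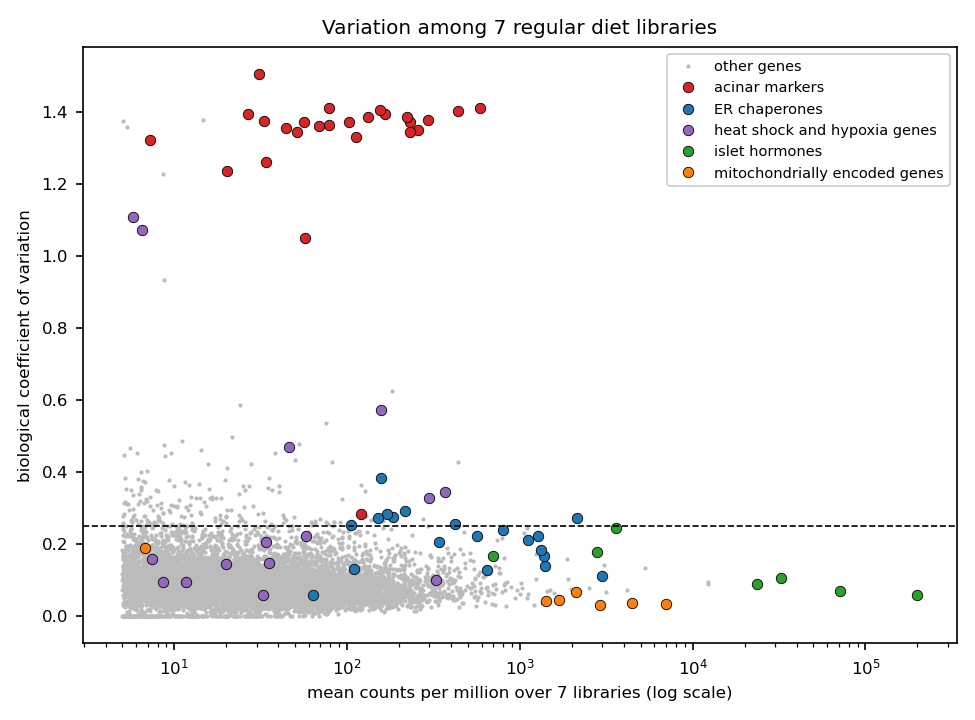
CV over the 7 RD libraries after the counting variance was subtracted, against mean CPM (log axis), for genes of at least 5 CPM, with a dashed line at 0.25. Acinar markers lie mostly above 1, several ER chaperone and heat shock genes lie above the line, and hormone and mitochondrially encoded genes lie below it.

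Further patterns held most of the remaining variable genes. When the 228 genes were grouped by the similarity of their profiles over the 7 libraries (average linkage on 1 minus the correlation, cut at 0.4), 189 fell into the 5 largest of 15 groups, with 62, 36, 35, 34 and 22 members. The group of 35 held 25 acinar markers, and also the cold-inducible RNA-binding protein gene Cirbp (70.8, 47.3, 80.2, 70.5, 95.6, 106.4 and 117.1 CPM). The groups were formed from these values and are a description.

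The group of 62 held protein-folding genes. It contained 8 of the 20 ER chaperone genes and 3 heat shock genes. These 8 were all the chaperone genes that were variable, against 2.15% of all genes above 5 CPM. The median member of the group stood 0.54 above its mean on the log2 scale in library 2 and 0.43 below it in library 6. Hsph1, a cytosolic co-chaperone, had 218, 320, 136, 174, 90.3, 82.2 and 81.8 CPM. Creld2, an ER folding protein, had 146, 224, 226, 185, 122, 87.8 and 103.1 CPM. Libraries 5 to 7 lay below libraries 1 to 4 for both genes. Other members were the retinaldehyde dehydrogenase Aldh1a3 (50.8, 85.5, 150, 96.6, 54.6, 41.6 and 49.2 CPM), in which library 1 lay below library 5, the granule peptide Vgf, the collagen Col3a1 and the opioid precursor Pdyn.

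Inducible heat shock and immediate early genes followed other orders. Hspa1a, which encodes the inducible HSP70, had 12.8, 2.67, 5.36, 16.5, 0.794, 1.69 and 0.725 CPM. Its neighbour Hspa1b had 14.3, 3.48, 7.12, 17.8, 0.722, 1.87 and 0.535 CPM, and 62.3% of its windows occurred in other genes, mostly Hspa1a, so the split between them is uncertain. Both were highest in libraries 4 and 1. The immediate early gene Fos had 6.88, 3.12, 9.04, 25.7, 3.85, 5.42 and 6.83 CPM, with library 4 well above the others. Nr4a1, an activity-induced nuclear receptor, had 13.2, 4.36, 32.7, 43.4, 32.7, 27.5 and 15.2 CPM. Of the 12 immediate early genes above 5 CPM, 5 were variable, against 2.15% of all genes at that level. The abundant Btg2 was not, at a CV of 0.086.

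The group of 36 was led by Pcsk1n, which encodes the convertase inhibitor proSAAS, with 372, 264, 134, 72.2, 79.2, 254 and 101.5 CPM and a CV of 0.627. Cited2 and Gadd45b, which encode a transcription co-regulator and a stress-induced growth regulator, showed the same high values in libraries 1, 2 and 6. Members had a median transcript GC content of 57.6%, against 49.5% over all genes, and a median exon length of 1886 bases against 4723. GC content moved with the libraries over all genes: in the tenth of genes with the highest GC, from 57.6% to 73.7%, the median gene stood 0.18, 0.02, 0.06, -0.10, -0.15, 0.04 and -0.05 from its mean (log2) in libraries 1 to 7. The median member of the group stood at 0.56, 0.46, -0.01, -0.51, -0.41, 0.19 and -0.32. The part of GC content in the profile was not tested. When the running median over GC was removed from each library, 202 genes were variable and 189 of them were among the 228, with 51 of 62, 23 of 36, 35 of 35, 26 of 34 and 22 of 22 genes of the 5 groups.

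The group of 34 held 19 protein-coding genes and 15 of other biotypes. Malat1, a nuclear long noncoding RNA, had 513, 565, 673, 209, 253, 274 and 575 CPM. Meg3, an imprinted noncoding RNA, had 47.9, 47.0, 56.7, 20.1, 20.4, 39.1 and 50.7 CPM, and Kcnq1ot1, another imprinted one, 12.04, 13.6, 19.01, 4.35, 6.62, 6.69 and 15.6 CPM. Libraries 4 and 5 were low for all of them, and library 6 for Malat1 and Kcnq1ot1. Not all long noncoding RNAs took part, since Peg13 had a CV of 0.05 and Gas5 of 0.0814. Uniquely mapped pairs that matched no gene feature on the counted strand numbered 3.92 and 4.72 per 100 pairs on genes in libraries 4 and 5. In the other libraries they numbered 5.40 to 6.46. Where these pairs lie is not given in the counts, and their part in these values was not tested. The group of 22 held 14 pseudogenes and stood 0.88 below its mean (log2) in library 2, where pseudogenes took 0.342% of counts against 0.43% to 0.534% elsewhere. Its members Gm28437, Gm28438, Gm28439, Gm13339 and Gm11512 share windows with the mitochondrially encoded genes mt-Co3, mt-Nd3, mt-Nd4, mt-Nd2 and mt-Co1. Gm10925 and Gm13340, which share windows with mt-Atp6 and mt-Co1, had CVs of 0.235 and 0.242 and were not variable.

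**Figure D4:**
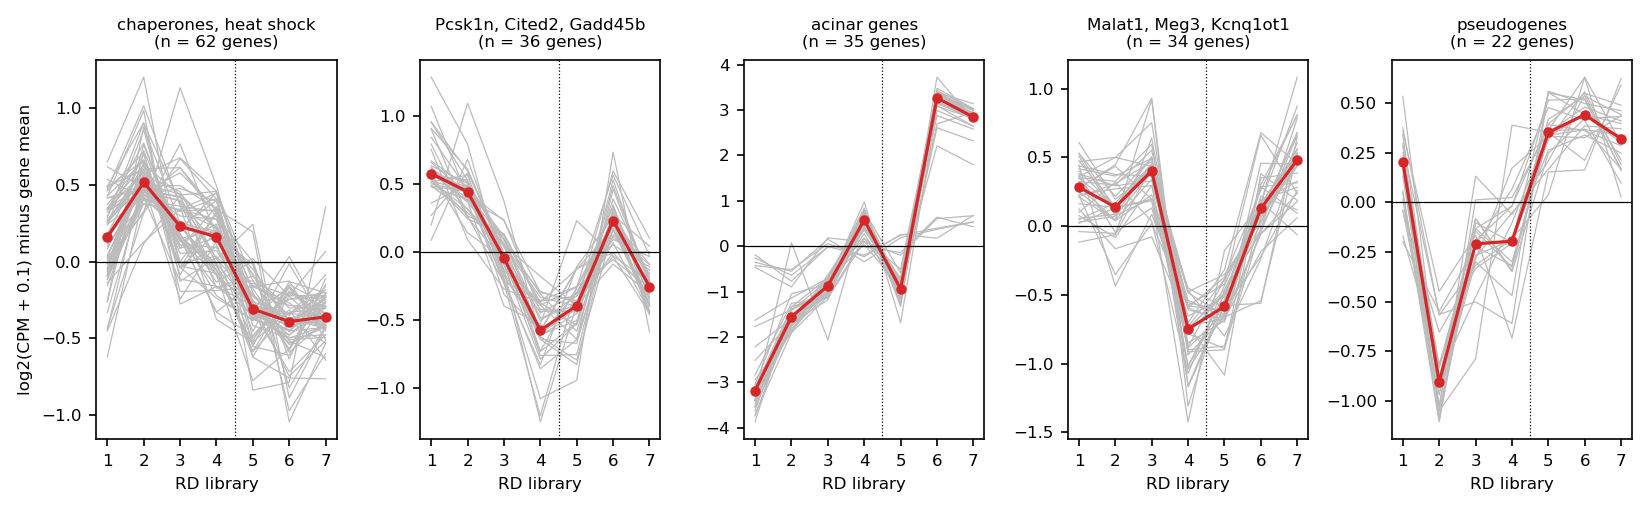
Profiles of the 5 largest groups of variable genes over RD libraries 1 to 7, as log2(CPM + 0.1) minus each gene's mean, with 1 grey line per gene, the median in red and a dotted line between libraries 4 and 5. The acinar panel has the widest axis and peaks in libraries 6 and 7, the chaperone panel is high in libraries 1 to 4, and the Malat1 panel dips in libraries 4 and 5.

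The library numbers in the names of the deposited data run on without a gap from RD library 1 to 4, whereas those of libraries 5 to 7 come later, so the pools were also compared by these sets of 4 and 3. What the numbers stand for is not stated. The p-values set the difference between the sets against the spread among these pools within a set. In total 4 genes passed an adjusted p of 0.01 in edgeR's quasi-likelihood test among 23322 genes tested (0.0172%), and all 4 were lower in libraries 5 to 7. Sdf2l1, an ER co-chaperone, had 197, 233, 195 and 189 CPM in libraries 1 to 4 and no more than 138 CPM in libraries 5 to 7, a log2 difference of -0.77 ± 0.09 (SE, edgeR adjusted p = 0.00704). Mogs, the glucosidase that trims new N-glycans, differed by -0.71 ± 0.08, the cytosolic chaperone Hsp90aa1 by -0.86 ± 0.10 and Bhlha15, a transcription factor of secretory cells, by -0.75 ± 0.09, each with the same edgeR adjusted p of 0.00704. For all 4 genes the sets did not overlap. At an unadjusted p under 0.05 there were 3296 genes.

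The call count was fragile. It was 0 without library 2, without library 6, without library 7 or without libraries 6 and 7, with 2765, 2222, 2508 and 1389 genes at an unadjusted p under 0.05. It was 120 without library 1, 7 without library 3, 11 without library 4 and 42 without library 5. DESeq2 called 387 genes, and edgeR called 0 when no scaling factors were used, with 3606 at an unadjusted p under 0.05. At an adjusted p of 0.05 edgeR called 205 genes lower in libraries 5 to 7 (0.879%) and 27 higher (0.116%). Among the latter were Tspan2, a tetraspanin (log2 difference 0.44 ± 0.07), and Sv2b, a vesicle membrane protein (0.56 ± 0.11).

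Most ER chaperone genes were lower in libraries 5 to 7. All 20 ER chaperone genes had a negative difference, with a median of -0.54 on the log2 scale against 0.01 over all genes tested. At an edgeR adjusted p of 0.05, 14 of the 20 fell, against 0.879% of all genes tested, and at 0.01 only Sdf2l1 did, against 0.0172%. In 16 of the 20 all of libraries 1 to 4 lay above libraries 5 to 7, which held for 12.2% of all genes above 5 CPM. Hspa5 (BiP), the main ER chaperone, had 1934, 2773, 2626 and 2628 CPM in libraries 1 to 4 and 1651, 1562 and 1774 in libraries 5 to 7. Its log2 difference was -0.66 ± 0.11 (edgeR adjusted p = 0.0154). Creld2 fell by 0.98 ± 0.15, Pdia4, a disulfide isomerase, by 0.70 ± 0.12, and Calr, a calcium-binding lectin chaperone, by 0.53 ± 0.08. The 6 that did not pass were Hsp90b1 (log2 difference -0.40 ± 0.09), Pdia3 (-0.29 ± 0.08), Fkbp2 (-0.27 ± 0.09), Canx (-0.26 ± 0.08), Ero1lb (-0.23 ± 0.07) and Ero1l (-0.06 ± 0.08), with edgeR adjusted p from 0.0591 to 0.758. As a share of counts the list took 1.48%, 1.88%, 1.73% and 1.79% in libraries 1 to 4 and 1.38%, 1.24% and 1.36% in libraries 5 to 7. Library 1 lay nearest to the lower set.

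The 23 genes of ER translocation and signal peptide cleavage all had negative differences, with a median of -0.37, and 6 fell at an adjusted p of 0.05, against 0.879% of all genes. Of the 18 heat shock and hypoxia genes, with a median of -0.28, 7 fell and the metabolic kinase Pdk1 rose, against 0.879% and 0.116% of all genes, with log2 differences of -1.39 ± 0.20 for Hsph1, -0.85 ± 0.13 for Hspa8 and 0.37 ± 0.08 for Pdk1. Of the 17 unfolded protein response and ATF4 target genes, 15 had negative differences, with a median of -0.34. Among the members with at least 5 CPM, 9 of 15 were higher in all of libraries 1 to 4, against 12.2% of all genes at that level. Only Atf5 passed 0.05 (-0.50 ± 0.09), while Xbp1, the transcription factor of that response, differed by -0.12 ± 0.07 with an edgeR adjusted p of 0.478. Negative differences were also common in lists with other functions. They were found in 45 of 46 nuclear genes of the respiratory chain (median -0.17, 2 passed 0.05). The same held for 79 of 82 cytosolic ribosomal protein genes (median -0.17, 2 passed) and all 16 stellate, fibroblast and pericyte markers (median -0.29, 1 passed). Of the members above 5 CPM, 15 of 46, 20 of 78 and 3 of 10 were higher in all of libraries 1 to 4, against 12.2% of all genes at that level. None of the 8 hormone genes passed, and Ins2 differed by -0.12 ± 0.04 (edgeR adjusted p = 0.16). The acinar share averaged 0.0898% in libraries 1 to 4 and 0.732% in libraries 5 to 7, although library 5 alone was at 0.0699%, and 5 of the 36 acinar genes rose at 0.05, against 0.116% of all genes. The part of the acinar share in the other differences was not tested.

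**Figure D5:**
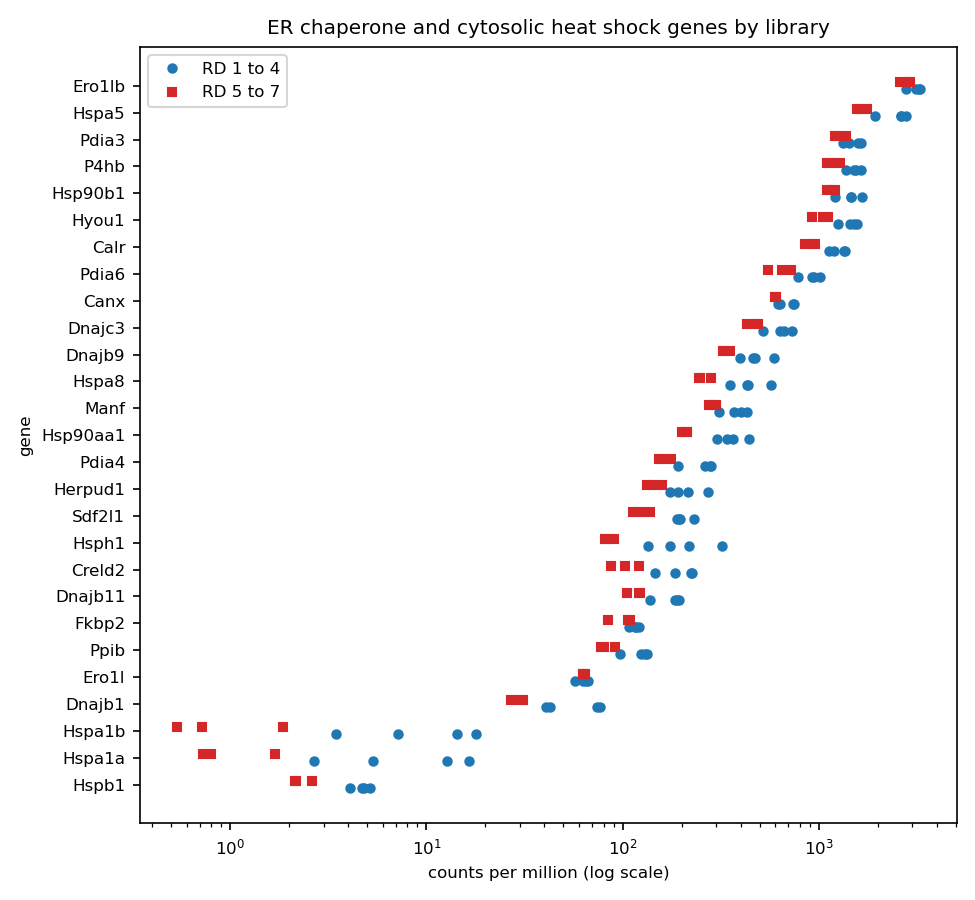
CPM (log axis) of the 20 ER chaperone genes and 7 cytosolic heat shock genes in RD libraries 1 to 4 (blue circles) and 5 to 7 (red squares), 1 point for each library. The red squares lie to the left of the blue circles for most genes, with Ero1l as an exception.

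The same sets of 4 and 3 library numbers exist among the HFD and HFD-O304 libraries, which did not enter the test among RD libraries. In an edgeR fit of all 21 libraries, Hsp90aa1 was lower in the later numbers in each group, by -0.86 ± 0.11 in RD, -1.10 ± 0.11 in HFD (edgeR adjusted p = 4e-06) and -1.02 ± 0.11 in HFD-O304 (edgeR adjusted p = 6.78e-05). Sdf2l1 differed by -0.37 ± 0.16 in HFD and -0.31 ± 0.16 in HFD-O304, Mogs by -0.57 ± 0.13 and -0.17 ± 0.13, and Bhlha15 by -0.29 ± 0.12 and -0.18 ± 0.12, of which none passed 0.01. In RD the same fit gave an edgeR adjusted p of 0.026 for Sdf2l1, 0.017 for Mogs and 0.00493 for Bhlha15. Sdf2l1 and Mogs thus did not pass 0.01 in RD either. Whether these differences depend on the diet group was not tested. The 20 ER chaperone genes all had negative differences in HFD, with a median of -0.42 against 0.00398 over all genes, and in HFD-O304, with a median of -0.26 against 0.000664. Of the 20 genes, 1 passed an edgeR adjusted p of 0.01 in HFD, where 164 of 23322 genes did, and 0 in HFD-O304, where 9 did. In RD 0 of the 20 passed in this fit, where 12 of all genes did.

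Many of the genes that varied among RD pools also varied in the other pools. Of the 228 genes, 198 reached 5 CPM in HFD islets, and 126 of them (63.6%) had a CV of at least 0.25 there, against 3.35% of all genes. In HFD-O304 islets it was 55.4% of 213 genes, against 2.12%. The acinar share ranged from 0.0182% to 0.914% in HFD and from 0.015% to 0.409% in HFD-O304 libraries.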

How the data were processed

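Total RNA of RD islets was sequenced as 50 bp read pairs (TruSeq RNA kit, NovaSeq). The authors checked reads with FastQC, aligned them to GRCm38 (Ensembl 96) with STAR and deposited its gene counts: unstranded, first-strand and second-strand read pairs per gene, uniquely mapped only and not normalized. Versions are not given in the sources used here. The second-strand counts were used, since they exceeded the antisense counts 33.2- to 36.3-fold. Symbols came from GENCODE vM21 for all 55536 genes, and 2 of the listed symbols were matched through older names. Rows that name no gene (unmapped, mapped to several places, without a gene feature or ambiguous) were left out of library sizes, and genes held 75.1% to 81.0% of pairs.

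CPM, shares and levels per length were computed for each library. Replicates are pools of 5 mice. The mean chi-square per gene between any pair of libraries was 8.06 to 53.2, above the value of 1 for sampling noise, so none was a duplicate. CVs used TMM-scaled counts of genes with a mean of at least 5 CPM. Library sets were compared with edgeR 4.0.16 (quasi-likelihood, at least 10 reads over the 7 libraries, Benjamini-Hochberg adjusted p under 0.01), and DESeq2 1.42.0 was an alternative. Tested on simulated data, the library set comparison recovered 89 of 104 genes changed 2-fold and 94 of 96 changed 4-fold. Of its 192 calls among 22775 genes, 9 were false. In a second run with 0 genes changed, it made 0 calls among 22829 genes. Named genes were the most abundant, the members of fixed lists (the 5 highest and any with a CV of at least 0.25), the 30 most variable and those with the largest set differences. Others, such as Calr, Ero1l, Gas5, Cirbp and Pdk1, were chosen after their values were seen. Alternatives covered the normalization, the filters, the strand and each library left out in turn. In 1 HFD-O304 library the diet tag differs from the title, and the title was used. The members and the gene lists were chosen with earlier results of these data known.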

Additional observations from a re-analysis of the deposited data

How the results depend on the processing

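With all uniquely mapped read pairs as the total, the hormone share was 31.3% and the mitochondrial share 1.84%. Without 1 library at a time, the shares ranged from 33.2% to 33.6% for hormones, 1.95% to 2.0% for mitochondrial genes, 0.223% to 0.421% for acinar genes and 1.498% to 1.61% for ER chaperones. The 13006 genes expressed in every library became 14285 at 0.5 CPM and 13217 at 1 length-scaled unit. The 228 variable genes became 737 at a mean of 1 CPM, 98 at 20 CPM and 90 with edgeR's tagwise dispersion, whose values are drawn towards the common trend. They were 162 within library sets and 198 to 278 without 1 library. Alternatives chosen after seeing the data gave 260 without libraries 6 and 7 and 202 after correction for GC content.

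The 4 genes that differed between library sets were called by edgeR with the size factors of DESeq2 and with unstranded counts (4 each). DESeq2 called 387, edgeR without a filter on low counts 625, edgeR at an adjusted p of 0.05 232, and the fit of all 21 libraries 12, of which 2 were among the 4. edgeR called 0 genes without scaling factors (3606 at an unadjusted p under 0.05), 0 with its own expression filter (2931) and 0 without libraries 6 and 7 (1389). Without 1 library at a time it called 0 to 120, and the 0 counts had 2222 to 2765 genes at an unadjusted p under 0.05. The causes were not tested. No paired analysis was possible because the library sets compared share no replicate numbers.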

Other observations

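Clock genes filled a list that the account of RD islets did not use, and ribosomal protein genes 1 that it used only to compare library sets. The 17 circadian clock genes took 0.0573% ± 0.00433 of counts (SD, n = 7), led by Clock at 125 CPM, which ranged from 118.3 to 133 CPM. The heme-binding repressor Nr1d1 had a CV of 0.281. Tef, an output factor of the clock, was higher in libraries 5 to 7, by 0.41 ± 0.09 on the log2 scale (edgeR adjusted p = 0.0378). The 84 cytosolic ribosomal protein genes took 0.97% ± 0.0534 of counts, led by Rpl4 at 825 CPM. None of the 78 above 5 CPM had a CV of at least 0.25, a value that only 2.15% of all genes at that level reached. In 79 of 82 the difference between libraries 5 to 7 and 1 to 4 was negative, with a median of -0.17.

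Interferon response and MHC class I genes were the list with the lowest spread between pools, at 0.0502% ± 0.00101, led by H2-K1 at 154 CPM. Proliferation genes took 0.00781% ± 0.000489, with Mki67 at 6.1 CPM. Of the list of serotonin, prolactin receptor and pregnancy genes, Prlr stood at 546 CPM and Ddc at 450.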
